A study of Mus musculus with 8 samples.

Results

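The genes described here are those of glycolysis and of the response to low oxygen: 38 genes that carry glucose and lactate across the membrane, catalyse glycolysis, set its rate, sense oxygen, or are targets of the hypoxia-inducible factors (HIFs). They were taken by gene symbol from the authors' table of 20152 genes, and 38 of 38 were found. The table compares back skin of GNAQ R183Q mouse embryos with back skin of wild-type embryos, 4 RNA-seq libraries of each genotype, all collected at E14.5. GNAQ encodes the alpha subunit of the G protein Gq, and R183Q is a change known from capillary malformations. The labels call the groups mutant and control and describe the samples as biologically independent. The sources used here do not give the promoter that drives the changed allele, the cells that carry it, the strain, the sex or the litters.

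Glycolysis splits glucose into pyruvate, and lactate dehydrogenase turns pyruvate into lactate when oxygen is short or growth is fast. When oxygen falls, the prolyl hydroxylases no longer mark HIF alpha subunits for destruction by the VHL ubiquitin ligase, and HIF with its partner ARNT turns on glucose transporters, most glycolytic enzymes, lactate export and genes that hold pyruvate back from mitochondria. HIF alpha is controlled mainly as a protein, so its mRNA need not follow its activity.

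The table holds, per gene, the authors' average expression over all libraries (a normalized count), their log2 fold change (GNAQ R183Q divided by wild type), their DESeq2 p-values, and mean and median z-scores of log2 CPM (the share of a library's reads) for each genotype. Values per library were not used here, and library depth is unknown. Fold changes, p and adjusted p are those of the authors' deposited table unless a recomputed value is named. The level in each genotype is therefore given as the mean that the average expression and the fold change imply together, and errors are 95% intervals implied by the fold change and its p. Gnaq had an implied mean of 2086 in GNAQ R183Q skin and 1960 in wild-type skin, with a log2 fold change of 0.09 (adjusted p 0.804) from the authors' deposited table, which does not tell the alleles apart. Of the 8 markers of suprabasal keratinocytes, 8 fell, where 2.46% of all genes did. None of the 8 was at 0 average expression, so the dissected tissue held epidermis.

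Of the 38 genes 1 fell, 0 rose and 37 did not pass the authors' DESeq2 adjusted p of 0.05, so that 2.63% were called, against 3.09% of all genes. The gene that fell was Eno3, the muscle enolase. Positive log2 fold changes were found for 29 of the 38, or 76.3%, against 51.0% of all genes and 49.8% of those with at least 1 CPM. Their median log2 fold change was 0.16, against 0.01 over all genes. When a trend of fold change on transcript length and GC content was removed, 31 of the 37 genes with a known length were positive. Of all genes of at least 1 CPM with a known length, 53.3% were then positive. The median of the 37 was 0.28, against 0.02 over all genes, with 0 of the 37 past the threshold. At an unadjusted p of 0.05, 4 genes were higher, or 10.5% of the 38 against 5.94% of all genes, and 1 was lower, or 2.63% against 8.23%, which makes 5 in either direction, where 14.2% of all genes stood. With the trend on length and GC removed, 7 genes were higher at that unadjusted p, Gapdh, Pkm and Ankrd37 beside the 4, where 6.93% of all genes with a known length stood, and 1 was lower, where 6.48% stood. The genes share libraries and pathways and are not independent of each other, so these shares describe the list and carry no test. The implied interval lay within a 2-fold change in either direction for 32 of the 38 (84.2%, against 87.4% of genes of at least 1 CPM) and within a 1.5-fold change for 17. Together the 38 genes made up 0.856% of the summed average expression.

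**Figure D1:**
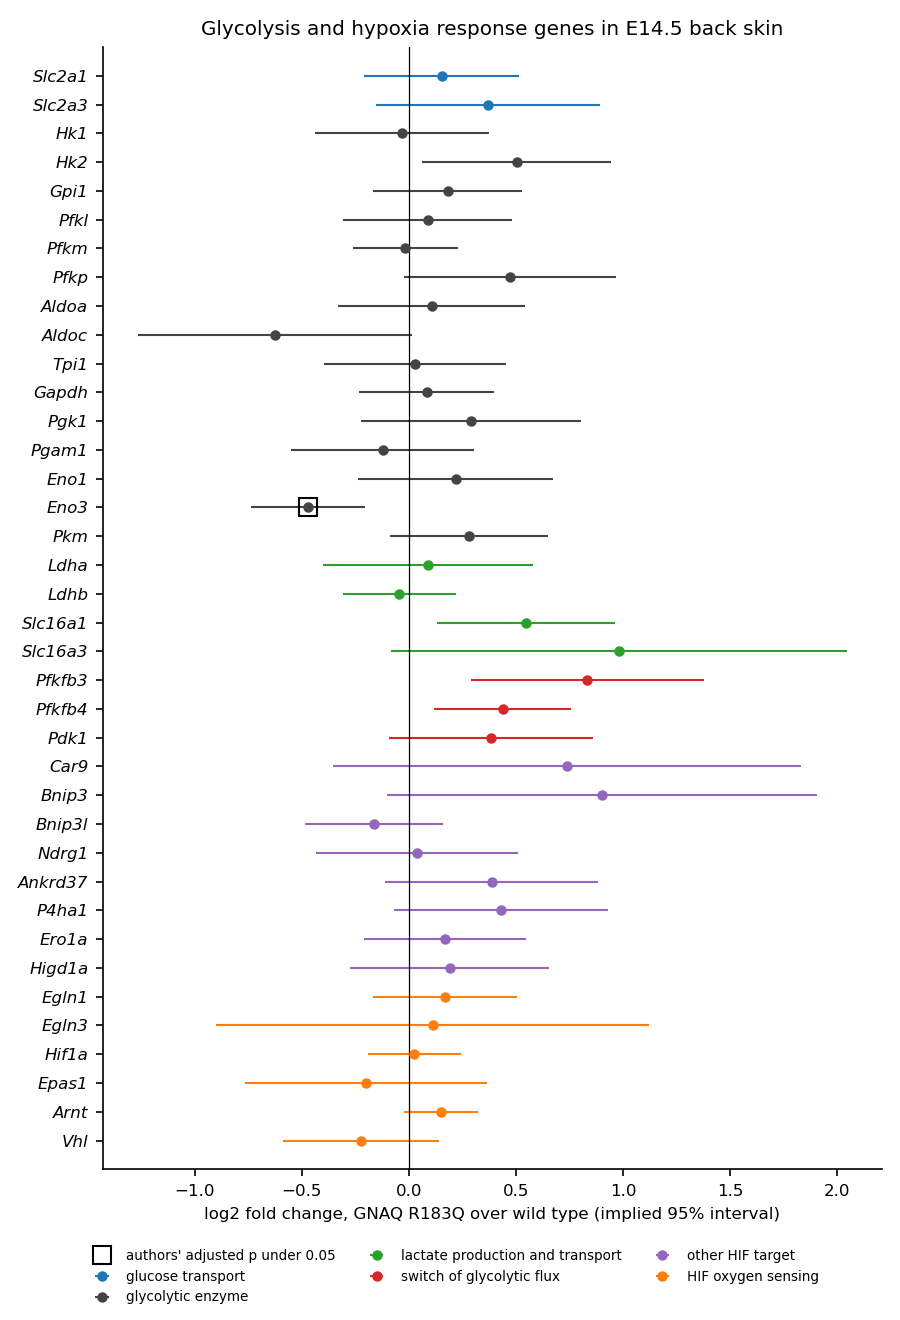
Log2 fold change (GNAQ R183Q divided by wild type) for each of the 38 genes, coloured by role, with the 95% interval implied by the authors' p-value; the open square marks the gene past their adjusted p of 0.05. Points lie right of 0 for 29 genes, and only Eno3, left of 0, passed.

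Both glucose transporters had positive fold changes with wide intervals. Slc2a1, which encodes the widespread transporter GLUT1, had an implied mean of 4436 in GNAQ R183Q skin and 3992 in wild-type skin, with a log2 fold change of 0.15 (interval from -0.21 to 0.52). Slc2a3, which encodes the high-affinity transporter GLUT3, had 7683 in GNAQ R183Q skin and 5949 in wild-type skin, with 0.37 and an interval from -0.15 to 0.89. Their adjusted p were 0.764 and 0.553 from the authors' deposited table. The genotypes must overlap for both genes, because no arrangement of 4 and 4 libraries that keeps them apart has the deposited means and medians. Per kilobase of transcript the average expression of Slc2a1 was 0.751 times that of Slc2a3 over all libraries.

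Among the 15 glycolytic enzyme genes 10 had positive and 5 negative fold changes, 1 fell and 0 rose, and the median log2 fold change was 0.09. With the trend on length and GC removed, 13 were positive, Hk1, Pfkm and Pgam1 among them, the median was 0.28, and 0 passed. The abundant enzymes of the lower pathway did not pass in either form. Gapdh, glyceraldehyde-3-phosphate dehydrogenase, had an implied mean of 44903 in GNAQ R183Q skin and 42379 in wild-type skin, with a log2 fold change of 0.08 (interval from -0.23 to 0.40). Tpi1, triose phosphate isomerase, had 17250 in GNAQ R183Q skin and 16909 in wild-type skin, with a log2 fold change of 0.03. Pkm, pyruvate kinase of muscle and embryonic tissue, had 36558 in GNAQ R183Q skin and 30122 in wild-type skin, with 0.28 and an interval from -0.09 to 0.65. The intervals of these 3 genes as deposited lie within a 2-fold change, and the genotypes must overlap. With the trend on length and GC removed, the log2 fold changes were 0.31 for Gapdh, 0.21 for Tpi1 and 0.46 for Pkm, with adjusted p of 0.373, 0.793 and 0.204. Pgk1, which makes the first ATP of the pathway, had a log2 fold change of 0.29, Eno1, the widespread enolase, 0.22, Gpi1, glucose-6-phosphate isomerase, 0.18, Aldoa, the main aldolase, 0.11, and Pgam1, phosphoglycerate mutase, -0.12 in the authors' deposited table. Their adjusted p lay between 0.661 and 0.883. With the trend removed, Pgk1 had 0.40 and Eno1 0.42 on the log2 scale. Many of these genes have processed pseudogenes, and the sources used here do not say how reads shared with copies were counted. The near-identical copy Eno1b was listed at an average expression of 66.9, against 16651 for Eno1.

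Eno3 encodes beta enolase, which replaces alpha enolase as skeletal muscle matures. It had an implied mean of 903 in GNAQ R183Q skin and 1253 in wild-type skin, a 1.39-fold decrease, with a log2 fold change of -0.47 (interval from -0.74 to -0.21). Its adjusted p was 0.0211 in the authors' deposited table, and its z-scores can be met only if all 4 GNAQ R183Q libraries lay below all 4 wild-type libraries, which holds for 6.39% of all genes. The call was lost once the trend on length and GC was removed, with a log2 fold change of -0.28 (adjusted p 0.342). A linear model rebuilt from the z-scores gave Eno3 a p of 0.0107 and an adjusted p of 0.257, but that model called 0 of 20152 genes, with 2481 at an unadjusted p of 0.05. At that unadjusted p the model had 2 of the 38 genes higher, Pfkfb4 and Arnt, and 1 lower, Eno3, where 5.81% of all genes were higher and 6.51% lower.

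Other genes of muscle were lower beside Eno3. Of 10 skeletal muscle markers 3 fell and 0 rose, where 2.46% of all genes fell and 0.630% rose. Of the 10 markers 9 had negative fold changes, and their summed implied means were 38820 in GNAQ R183Q skin and 45950 in wild-type skin. Muscle creatine kinase, Ckm, fell at -1.50, with an adjusted p of 1.01e-09, and the fast troponin genes Tnni2 and Tnnt3 fell, with -0.74 and -0.76 from the authors' deposited table. With the trend on length and GC removed, 2 of the 10 were called lower, Tnnt3 no longer passed (adjusted p 0.0999), and the list's median log2 fold change was -0.19, against -0.39 as deposited. The embryonic myosin gene Myh3 had a log2 fold change of 0.20 and desmin, Des, one of -0.21, with adjusted p of 0.897 and 0.686. No marker of the list was at 0. Pgam2, the muscle phosphoglycerate mutase, had an implied mean of 327 in GNAQ R183Q skin and 499 in wild-type skin, with a log2 fold change of -0.61 (adjusted p 0.156). Pfkm, the muscle phosphofructokinase that other tissues use too, had 1255 in GNAQ R183Q skin and 1270 in wild-type skin, with a log2 fold change of -0.02 (interval from -0.26 to 0.23). In bulk RNA fewer cells of a type and less RNA per cell cannot be told apart, and the part of muscle content in the Eno3 result was not tested.

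Enzymes that exist as several isozymes differed in their values. Hk1 and Hk2 encode hexokinases, which trap glucose in the cell, Hk1 in most tissues and Hk2 in muscle, growing cells and hypoxic cells. Hk2 had an implied mean of 1021 in GNAQ R183Q skin and 720 in wild-type skin, with a log2 fold change of 0.50 (interval from 0.06 to 0.94). Its unadjusted p was 0.0251 and its adjusted p 0.259, and the genotypes must overlap. Hk1 had 1339 in GNAQ R183Q skin and 1369 in wild-type skin, with a log2 fold change of -0.03, and its average expression per kilobase was 2.00 times that of Hk2. Whether Hk1 and Hk2 differed in their change was not tested, since their libraries are shared and their covariance is unknown. The phosphofructokinase genes Pfkl, of liver and other tissues, and Pfkp, of platelets and other tissues, had log2 fold changes of 0.09 and 0.47, with adjusted p of 0.896 and 0.381 from the authors' deposited table. Pfkl led this family per kilobase, at 2.44 times Pfkm and 4.49 times Pfkp. Aldoc, the brain aldolase, had 295 in GNAQ R183Q skin and 455 in wild-type skin, with a log2 fold change of -0.63 (interval from -1.26 to 0.01). This was the most negative value of the 38, but it missed the threshold with an adjusted p of 0.363, and per kilobase Aldoa stood 50.7 times above it.

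**Figure D2:**
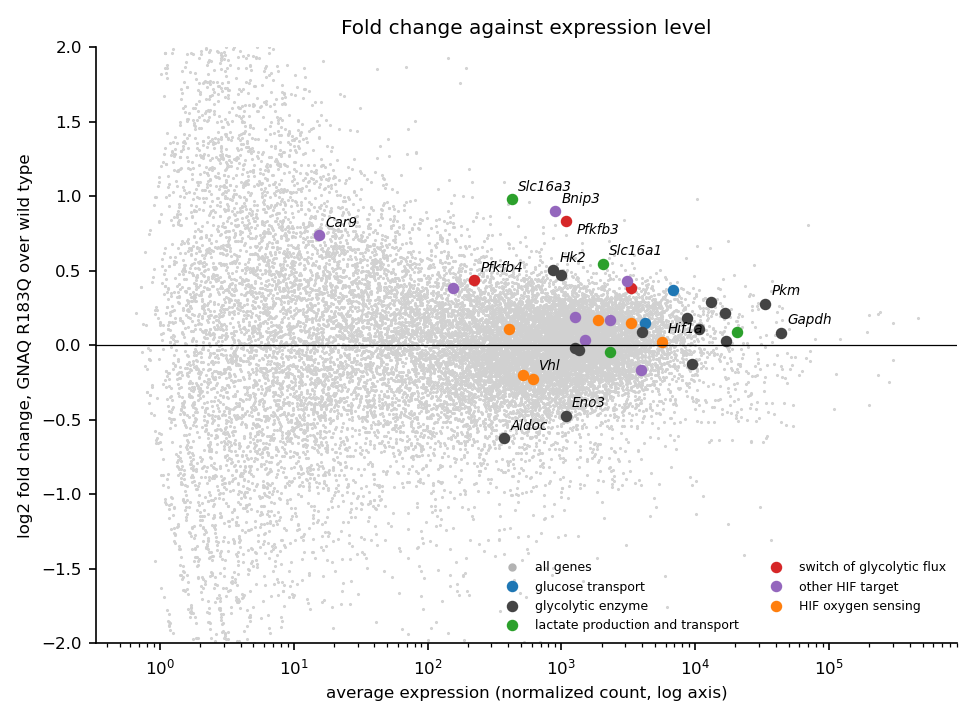
Log2 fold change (GNAQ R183Q divided by wild type) against average expression (normalized count, log axis), with all genes in grey and the 38 genes coloured by role; 640 genes of all 20152 lie beyond the vertical range of 2 in either direction. Gapdh, the most abundant of the 38, lies at 0.08 and Pkm, the next, at 0.28, and the highest values belong to Slc16a3, Bnip3 and Pfkfb3.

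The lactate transporters had larger positive fold changes than the dehydrogenases, a difference that was not tested. Ldha, the dehydrogenase subunit that favours lactate formation, had an implied mean of 21116 in GNAQ R183Q skin and 19864 in wild-type skin, with a log2 fold change of 0.09 (interval from -0.40 to 0.58). Ldhb, the subunit typical of oxidative tissue, had 2280 in GNAQ R183Q skin and 2353 in wild-type skin, with -0.05, an interval from -0.31 to 0.22 and 0.15 once the trend on length and GC was removed. Ldha exceeded Ldhb 6.36 times per kilobase. Slc16a1 encodes the lactate transporter MCT1 and had 2418 in GNAQ R183Q skin and 1656 in wild-type skin, with a log2 fold change of 0.55 (interval from 0.13 to 0.96). The adjusted p of Slc16a1 was 0.160, and the deposited z-scores do not settle whether its genotypes overlap. Slc16a3 encodes MCT4, the exporter of glycolytic cells, and had 566 in GNAQ R183Q skin and 287 in wild-type skin. With 0.98 it had the highest log2 fold change of the 38, but its interval ran from -0.08 to 2.04, its adjusted p was 0.406, and the genotypes must overlap.

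The 3 genes that set the direction of carbon flow all had positive fold changes. Pfkfb3 and Pfkfb4 encode bifunctional enzymes that make and break fructose 2,6-bisphosphate, the activator of phosphofructokinase, and Pdk1 encodes a kinase that shuts pyruvate dehydrogenase. Pfkfb3 had an implied mean of 1393 in GNAQ R183Q skin and 782 in wild-type skin, a ratio of 1.78, with a log2 fold change between 0.29 and 1.38 in its interval. It did not pass, with an adjusted p of 0.0720, and would at a threshold of 0.1, which 4.53% of all genes met. Pfkfb4 had 257 in GNAQ R183Q skin and 190 in wild-type skin, with a log2 fold change of 0.44 (interval from 0.12 to 0.76) and an adjusted p of 0.134. Although Pfkfb4 had the smaller fold change, its z-scores can be met only if the genotypes do not overlap, whereas those of Pfkfb3 do not settle it. Pdk1 had 3778 in GNAQ R183Q skin and 2900 in wild-type skin, with a log2 fold change of 0.38 (adjusted p 0.484) and genotypes that must overlap. With the trend on length and GC removed, the log2 fold changes were 0.79 for Pfkfb3, 0.51 for Pfkfb4 and 0.28 for Pdk1. The adjusted p were then 0.0992, 0.0510 and 0.720.

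Promoter sequences are shown for the 5 genes with an unadjusted p under 0.05, so that the bases before their starts can be read beside their values. They are the 250 bases before each start in RefSeq's annotation of GRCm38.p6, which is not the build of the authors' counts. Capitals mark the core letters of the HIF response element, ACGTG or GCGTG, on the printed strand, or CACGT or CACGC where they lie on the other strand; CACGTG holds a match on both strands.
Pfkfb3 start 1, chr2:11502091-11502340, minus strand: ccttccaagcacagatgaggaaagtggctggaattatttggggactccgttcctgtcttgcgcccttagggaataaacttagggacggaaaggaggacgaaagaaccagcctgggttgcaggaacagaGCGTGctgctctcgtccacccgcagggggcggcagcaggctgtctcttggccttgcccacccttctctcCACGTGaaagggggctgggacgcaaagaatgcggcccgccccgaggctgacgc
Pfkfb3 start 2, chr2:11553930-11554179, minus strand: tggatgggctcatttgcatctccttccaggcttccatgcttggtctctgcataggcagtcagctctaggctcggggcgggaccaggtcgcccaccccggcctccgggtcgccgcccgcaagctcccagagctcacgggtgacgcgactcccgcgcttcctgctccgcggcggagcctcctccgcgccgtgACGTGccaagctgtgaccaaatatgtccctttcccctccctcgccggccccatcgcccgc
Pfkfb4, chr9:108991652-108991901, plus strand: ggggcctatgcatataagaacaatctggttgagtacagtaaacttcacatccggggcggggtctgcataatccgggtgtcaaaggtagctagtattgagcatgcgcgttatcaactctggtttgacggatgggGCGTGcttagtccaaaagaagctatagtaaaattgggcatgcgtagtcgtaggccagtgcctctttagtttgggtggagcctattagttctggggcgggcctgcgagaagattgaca
Slc16a1, chr3:104638414-104638663, plus strand: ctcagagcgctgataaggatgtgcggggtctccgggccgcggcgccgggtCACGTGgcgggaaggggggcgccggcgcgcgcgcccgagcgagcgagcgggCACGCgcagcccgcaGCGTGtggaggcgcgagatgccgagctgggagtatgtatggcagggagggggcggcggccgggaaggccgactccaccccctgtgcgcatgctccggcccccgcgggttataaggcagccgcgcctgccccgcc
Hk2, chr6:82774455-82774704, minus strand: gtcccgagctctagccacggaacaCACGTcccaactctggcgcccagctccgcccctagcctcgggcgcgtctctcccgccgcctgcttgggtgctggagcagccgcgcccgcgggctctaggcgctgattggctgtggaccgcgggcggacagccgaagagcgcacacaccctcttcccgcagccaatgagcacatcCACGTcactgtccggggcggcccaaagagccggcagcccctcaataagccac
Eno3, chr11:70656926-70657175, plus strand: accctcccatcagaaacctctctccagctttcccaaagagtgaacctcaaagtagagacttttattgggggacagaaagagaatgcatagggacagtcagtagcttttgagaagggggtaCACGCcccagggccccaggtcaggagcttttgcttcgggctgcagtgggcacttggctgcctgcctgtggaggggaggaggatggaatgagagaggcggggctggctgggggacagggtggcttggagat
Each of these windows held at least 1 match, including that of Eno3, the gene that fell. A promoter was found for 34 of the 38 genes, and 31 of these had a match in at least 1 window, or 91.2%, against 54.3% of the 15212 genes of the table that have a promoter there. By window, 83.0% of 47 held a match, against 48.8% of the 19402 windows of genes in the table. These windows were rich in G and C, with a median of 62.0% against 57.6% over the windows of genes in the table. Of windows with at least 60% G and C, 92.6% of the 27 of these genes and 64.9% of those of genes in the table held a match. The 31 genes with a match had a median log2 fold change of 0.17 and the 3 without one 0.03, a difference that was not tested. Those 3 were Gpi1, Tpi1 and Vhl, with 0.18, 0.03 and -0.22. A match is a run of letters and does not show that a factor binds there, and many of the 38 genes were listed because they are known HIF targets.

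Of the 8 other HIF targets, 7 had positive fold changes and 0 passed, with a median log2 fold change of 0.29. Bnip3 and Bnip3l encode related receptors that mark mitochondria for removal. Bnip3 had an implied mean of 1164 in GNAQ R183Q skin and 624 in wild-type skin, with a log2 fold change of 0.90 (interval from -0.10 to 1.90), whereas Bnip3l had 3702 in GNAQ R183Q skin and 4146 in wild-type skin, with -0.16 and an interval from -0.48 to 0.16. Their adjusted p were 0.421 and 0.702 in the authors' deposited table, and both genes must overlap between genotypes. Car9, carbonic anhydrase 9, a surface enzyme that is among the most oxygen-dependent HIF targets, was barely expressed, at 19.4 in GNAQ R183Q skin and 11.6 in wild-type skin. It was the 1 gene of the 38 under 1 CPM, and its log2 fold change of 0.74 had an interval from -0.36 to 1.83.

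P4ha1, a subunit of the enzyme that hydroxylates collagen prolines, had 3549 in GNAQ R183Q skin and 2635 in wild-type skin, with a log2 fold change of 0.43. Ankrd37, an ankyrin-repeat gene used as a hypoxia marker, had 176 in GNAQ R183Q skin and 135 in wild-type skin, with 0.39. Higd1a, a mitochondrial protein induced by hypoxia, and Ero1a, an oxidase of protein folding, had log2 fold changes of 0.19 and 0.17, and the stress-response gene Ndrg1 one of 0.04 in the authors' deposited table. The mean z-score of Ndrg1 pointed the other way, at -0.01 in GNAQ R183Q skin and 0.01 in wild-type skin. The adjusted p of these 5 genes lay between 0.447 and 0.971, and the genotypes must overlap for each.

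The oxygen-sensing genes had 4 positive and 2 negative fold changes, 0 called and a median log2 fold change of 0.07. With the trend on length and GC removed, 3 were positive and the median was 0.01. Hif1a, the main alpha subunit, had an implied mean of 5668 in GNAQ R183Q skin and 5573 in wild-type skin, with a log2 fold change of 0.02 and a narrow interval from -0.19 to 0.24, turning to -0.08 once the trend on length and GC was removed. Epas1, which encodes HIF-2 alpha and is prominent in endothelium, had 484 in GNAQ R183Q skin and 555 in wild-type skin, with -0.20 and an interval from -0.76 to 0.36. Per kilobase Hif1a stood 12.6 times above Epas1. Arnt, the common partner, had 3470 in GNAQ R183Q skin and 3132 in wild-type skin, with 0.15 and an interval from -0.03 to 0.32. The mean z-score of Arnt was 0.70 in GNAQ R183Q skin and -0.70 in wild-type skin, its p was 0.0942 by DESeq2 and 0.0318 in the rebuilt linear model, and the z-scores do not settle whether the genotypes overlap.

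Vhl, the ubiquitin ligase subunit that captures hydroxylated HIF alpha, had 564 in GNAQ R183Q skin and 659 in wild-type skin, with a log2 fold change of -0.22 (interval from -0.59 to 0.14). Among the prolyl hydroxylases, Egln1, the main oxygen sensor, had a log2 fold change of 0.17 and an interval from -0.17 to 0.51. Egln3, which is itself a HIF target, had 423 in GNAQ R183Q skin and 392 in wild-type skin, with a log2 fold change of 0.11. The wide interval of Egln3, from -0.90 to 1.12, held a 2-fold increase but not a 2-fold decrease. Its mean z-score was -0.06 in GNAQ R183Q skin and 0.06 in wild-type skin, opposite in sign to the fold change, which was so for 3 of the 38 genes (Pfkm, Ndrg1 and Egln3) and 4.31% of all genes. Egln2, the third hydroxylase and no member of the 38, fell to 989 in GNAQ R183Q skin, against 1376 in wild-type skin, with a log2 fold change of -0.48 (adjusted p 0.0365) from the authors' deposited table. The deposited z-scores of Egln2 can be met only if the genotypes do not overlap. Its call was lost once the trend on length and GC was removed, with an adjusted p of 0.545.

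The z-scores show how the libraries within a genotype lie. In a group of 4, the deposited median is the mean of the inner 2 libraries, and the mean and median together give the mean of the outer 2, the lowest and the highest. In GNAQ R183Q skin the outer pair lay above the inner pair for 33 of the 38 genes, or 86.8%, against 51.1% of genes of at least 1 CPM. In wild-type skin this held for 22, or 57.9%, against 44.9%. Gpi1 had an inner pair at -0.08 and an outer pair at 0.79 in GNAQ R183Q skin, with -0.33 and -0.38 in wild-type skin. Gapdh had -0.12 and 0.66 in GNAQ R183Q skin, with -0.44 and -0.09 in wild-type skin. For both genes the highest GNAQ R183Q library thus lay farther above the inner pair than the lowest lay below it. Which library this was, and whether it was the same one for all genes, cannot be read from means and medians.

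For 9 of the 29 genes with a positive fold change the GNAQ R183Q median z-score was below 0. The GNAQ R183Q median was above the wild-type median for 29 of the 38 genes, against 52.7% of genes of at least 1 CPM. The genotypes must overlap for 33 of the 38 genes, or 86.8%, against 80.5% of all genes, cannot overlap for 2, Eno3 and Pfkfb4, or 5.26% against 6.39%, and the z-scores do not settle it for 3, Slc16a1, Pfkfb3 and Arnt.

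**Figure D3:**
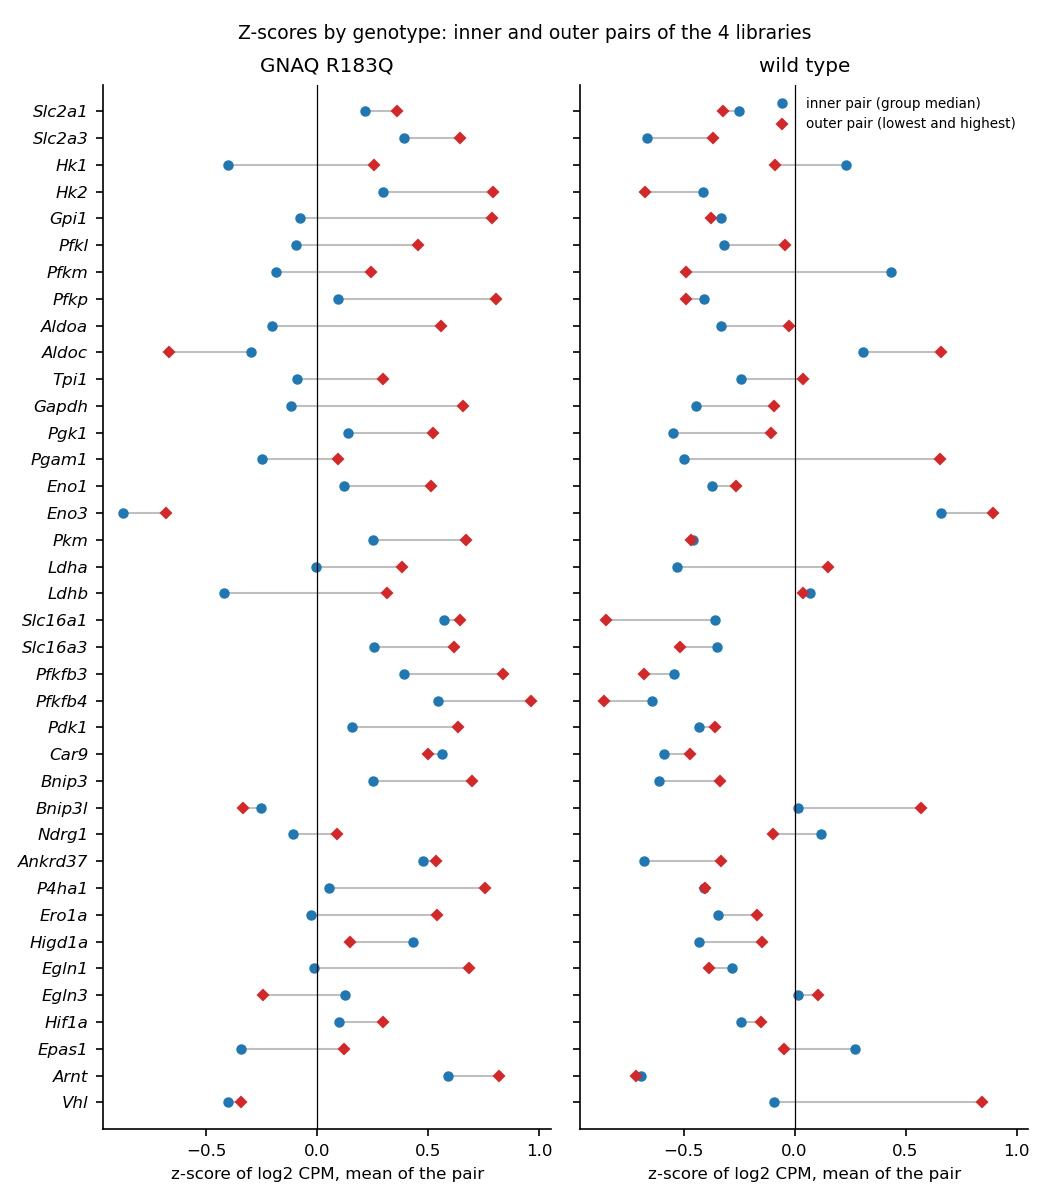
Z-scores of log2 CPM for the 38 genes in GNAQ R183Q skin (left) and wild-type skin (right); circles are the mean of the inner 2 of 4 libraries, which is the deposited median, and diamonds the mean of the lowest and highest library. In GNAQ R183Q skin the diamond lies right of the circle for 33 of 38 genes, and for Eno3 both markers lie below 0 in GNAQ R183Q skin and above 0 in wild-type skin.

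Neighbouring pathways were examined through lists of 147 other genes, of which 7 stand in more than 1 list. Of 21 measured genes for other glycolytic isozymes and side enzymes 0 passed, 7 had positive fold changes, and the median log2 fold change was -0.16, or -0.06 with the trend on length and GC removed, with Pgam2, given above, of smallest p and the only one at an unadjusted p of 0.05. All 7 pentose phosphate genes, whose enzymes divert glucose-6-phosphate to NADPH and ribose, had negative fold changes, with a median of -0.32, and 0 passed; once the trend on length and GC was removed 1 was positive and the median was -0.14. At an unadjusted p of 0.05, 3 of the 7 were lower, where 8.23% of all genes were lower. The smallest p of the 7 was that of Pgd, 6-phosphogluconate dehydrogenase. Pgd had an implied mean of 2343 in GNAQ R183Q skin and 2860 in wild-type skin, with a log2 fold change of -0.29 (adjusted p 0.208) from the authors' deposited table. Of 28 genes of pyruvate oxidation and the citric acid cycle 0 passed, with 11 positive fold changes and a median of -0.03, or -0.01 with the trend removed. Pdk3, a pyruvate dehydrogenase kinase, had the smallest p of these, with 1527 in GNAQ R183Q skin and 1317 in wild-type skin, a log2 fold change of 0.21 and an adjusted p of 0.322.

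Other HIF targets, 45 genes, had 28 positive fold changes and a median of 0.12, or 34 and 0.19 with the trend on length and GC removed. As deposited 2 fell while 0 rose, against 2.46% of all genes that fell and 0.630% that rose. At an unadjusted p of 0.05, 8 of the 45 were higher and 3 lower, where 5.94% of all genes were higher and 8.23% lower. The genes of this list that fell were Rora and Egln2, the hydroxylase gene given above. Whether Egln2 is a HIF target here was not tested, and its call is counted again among the pathway factors below. Rora, a nuclear receptor gene, had 752 in GNAQ R183Q skin and 1093 in wild-type skin, with a log2 fold change of -0.54 (adjusted p 0.0140) from the authors' deposited table. Once the trend on length and GC was removed, Rora was still called lower, with an adjusted p of 6.73e-05, and Pgf, a VEGF family ligand gene, passed on the higher side, with an adjusted p of 0.0104. Pgf had a log2 fold change of 0.63 and an adjusted p of 0.0919 from the authors' deposited table. Vegfa, of the same family, had 0.58 and an adjusted p of 0.0873 there, and of 0.0656 with the trend removed. At a threshold of 0.1, 2 of the 45 were higher, Pgf and Vegfa, and 2 were lower, where 4.53% of all genes passed in either direction. Of 16 other factors of the HIF pathway 5 had positive fold changes, the median was -0.07, and Egln2 alone passed, while with the trend removed 6 were positive, the median was -0.02 and 0 passed.

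**Figure D4:**
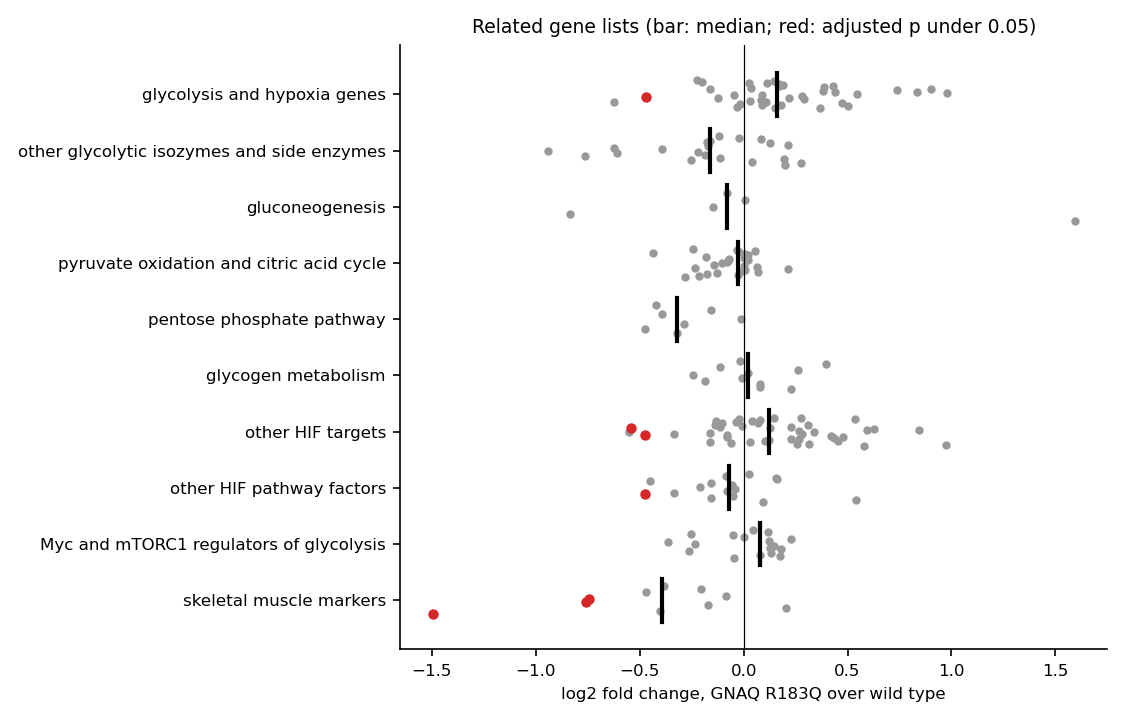
Log2 fold change (GNAQ R183Q divided by wild type) for each gene of the 38 and of the related lists, with the list's median as a bar and genes past the authors' adjusted p of 0.05 in red. The 38 genes have a median of 0.16, the pentose phosphate genes one of -0.32, and the skeletal muscle markers one of -0.39 with 3 genes past the threshold, values that become 0.28, -0.14 and -0.19 with 2 genes past it when the trend on length and GC is removed.

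Markers of other cell types of the dissected tissue moved between genotypes too. As deposited, 2.46% of all genes fell and 0.630% rose. Suprabasal keratinocyte markers summed to an implied mean of 60601 in GNAQ R183Q skin and 153330 in wild-type skin, with 8 of 8 fallen, and 7 with the trend on length and GC removed. Of 6 mast cell markers 3 fell. Of 8 erythroid markers 7 had negative fold changes, with a median log2 fold change of -0.45, or -0.35 with the trend removed. Hbb-y was the 1 that was positive, and it rose. Hba-a2, which has a near-identical copy, fell (adjusted p 0.0492), a call lost with the trend removed (adjusted p 0.421). Of 7 endothelial, 7 dermal fibroblast and 6 macrophage markers 0 passed, with or without the trend. Of 7 basal keratinocyte markers 1, Krt15, fell, and 0 of 6 neural and 4 measured cartilage markers passed, Tubb3 passing on the higher side with the trend removed (adjusted p 0.0421). None of the measured markers was at 0 average expression, and their part in the values of the 38 genes was not tested.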

How the data were processed

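RNA was sequenced from back skin of 4 GNAQ R183Q and 4 wild-type mouse embryos, grouped by sample title, with stranded TruSeq libraries and 1 batch label per the labels' protocols. The values are the authors' own comparison. Aligner, counter, annotation, filter and model remain not given in the sources used here, beyond DESeq2 and build mm39 in the submitters' processing notes. Average expression is a signal, the authors' mean of all libraries, per the file headers, read here as a normalized count. The log2 fold change, the p-value and its Benjamini-Hochberg adjusted form are the authors', per the file headers. The z-scores of log2 CPM are scores that the authors gave as a mean and median per genotype, per the file headers.

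From these were computed, with Python 3.11.15, pandas 2.3.3 and SciPy 1.17.1: a standard error (the size of the log2 fold change over the two-sided normal quantile of its p, as for a Wald test); genotype means, which assume that the average expression is the plain mean of 2 equal groups; and the mean of the lowest and highest library, 2 times the mean z-score minus the median. With a summed square of 7 for 8 z-scores, the means and medians bound whether the genotypes can overlap. The linear model has 6 residual degrees of freedom. The overlap bound, the linear model and the trend removal described below were tested on simulated data. The implied standard errors and genotype means were not. No depth is known, so no interval covers counting error alone. At 1 CPM the average expression is 26.8. Transcript length and GC are those of the longest protein-coding transcript in GENCODE vM21, or of the longest transcript where a gene has no protein-coding one. They were matched by symbol for 87.5% of genes and 37 of the 38. Splines of both were fitted (patsy 1.0.2) to 13786 genes. Promoters matched 34 of 38 symbols.

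All 38 genes were to be named, and of each related list up to 4 called genes per direction, or else the one of smallest p. Myh3, Des, Pgf, Vegfa and Tubb3 were singled out after their values were seen. The members and lists were chosen with earlier results of these data known. The table's unit allowed no count test, which had been planned for a count table only.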

Additional observations from a re-analysis of the deposited data

How the results depend on the processing

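The members' counts of 0 higher and 1 lower were the same after subtracting the median of all genes and after leaving out genes under 1 CPM. The lower count was 0 in the rebuilt linear model, which called no gene of the whole table (smallest adjusted p 0.0503), and 0 with the trend on length and GC removed, where the cause was not tested. At an adjusted p of 0.1 the higher count was 1, Pfkfb3. The median log2 fold change of 0.16 was 0.15 after centring, 0.15 without genes under 1 CPM, 0.20 without Eno3, Pfkm, Ldhb, Aldoc and the HIF factors, and 0.28 after trend removal, 1.5 times or more from the main value only there. Signs turned for genes near 0 that were called in neither setting. With the trend removed the log2 fold change was 0.0235 for Hk1, 0.0964 for Pfkm, 0.0363 for Pgam1, 0.147 for Ldhb and -0.0757 for Hif1a. In the linear model the t was 0.0706 for Pfkm, -0.0275 for Ndrg1 and -0.159 for Egln3. Ero1a had no length and was not tested with the trend removed. No paired analysis was possible because values per library were not used here, and for the same reason no replicate could be left out; depth is unknown, so wide intervals, as for Slc16a3, Bnip3, Car9 and Egln3, limit what the table shows. The authors' p-values set the genotype difference against the variation between these samples as DESeq2 models it. The submitters describe the samples as independent, and the sources used here do not give the litters.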

Other observations

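Genes that feed or regulate glycolysis from outside the pathway were also read. Of 11 genes of glycogen metabolism 0 passed the authors' DESeq2 threshold, 6 had positive fold changes, and the median log2 fold change was 0.02, or 0.05 with the trend on length and GC removed. The smallest p was that of Phka1, a regulatory subunit of phosphorylase kinase, with an implied mean of 407 in GNAQ R183Q skin and 309 in wild-type skin, a log2 fold change of 0.40 and an adjusted p of 0.292 from the authors' deposited table. Of 5 measured gluconeogenesis genes 0 passed and 2 had positive fold changes, with a median of -0.08, or -0.0035 with that trend removed. Fbp2, the muscle fructose bisphosphatase, had the smallest p, with 16.2 in GNAQ R183Q skin and 28.8 in wild-type skin and an adjusted p of 0.405 from the authors' deposited table.

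Of 17 genes for Myc, mTORC1, AKT and related regulators of glycolysis 0 passed, with 11 positive fold changes and a median of 0.08, or 9 and 0.00023 with the trend on length and GC removed. At an unadjusted p of 0.05, 1 of the 17 was higher and 2 were lower, where 5.94% of all genes were higher and 8.23% lower. Akt1, a kinase of insulin and growth factor signalling, had the smallest p, with 5342 in GNAQ R183Q skin and 6286 in wild-type skin. Its log2 fold change was -0.23 and its adjusted p 0.252 in the authors' deposited table, and its z-scores can be met only if the genotypes do not overlap.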
